A study of Drosophila melanogaster with 17 samples.

Results

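The genes described here remove superoxide and peroxide or control the response to them in adult brains of Drosophila melanogaster. They were chosen by gene symbol, as Sod1, Sod2, Sod3, Cat, Prx3, MsrA, Keap1 and cnc, with every probe set that carries 1 of these symbols. Of these 8 genes, 7 were named in the annotation used here, with 9 probe sets, out of 8938 genes and 13290 probe sets in all. Sod3 and cnc had 2 probe sets each. No probe set carried the symbol Sod1, the cytosolic superoxide dismutase, and it was not analysed here.

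Superoxide is a by-product of mitochondrial respiration, and superoxide dismutases turn it into hydrogen peroxide, which catalase and peroxiredoxins then remove. Oxidised methionine in proteins is repaired by methionine sulfoxide reductases such as MsrA. The transcription factor cnc, the fly counterpart of mammalian Nrf2, switches on antioxidant and detoxification genes, and Keap1 binds and restrains it until oxidants or electrophiles release it.

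RNA of whole brains was measured on 17 Affymetrix arrays, and each array held RNA pooled from 4 brains of both sexes. C17 (3 arrays) was a null mutant of moody, a receptor of the glia that form the blood-brain barrier, and PMdr65 (3 arrays) one of Mdr65, an efflux transporter of that barrier. UAS_control (3 arrays) held a UAS transgene targeting Mdr65 by RNA interference, with no driver named, in a background that the series calls similar to that of the mutants. WT_old (5 arrays) and WT_new (3 arrays) were both Canton S wild type. Each null allele was represented by 1 line. The mutants differed from the wild type in genetic background, and WT_new was processed on a different day than the mutants. The processing day of each array is not given, so day and group cannot be told apart. The age of the adults is not stated, and the labels give the rearing temperature as a choice between a cool setting and room temperature for all flies alike. The labels do not say whether arrays of a group came from separate crosses, so the p-values rest on array-to-array spread, which may be technical.

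Array medians lay between 7.856 and 7.991 on the log2 scale, and arrays of a group correlated with r between 0.9742 and 0.9967 across probe sets. The moody signal was 2.17 ± 0.11 in C17 (SD, n = 3), against group means of 9.77 to 10.03 in the controls. The Mdr65 signal was 4.69 ± 0.04 in PMdr65 (SD, n = 3), against 9.80 to 10.78. Neuronal markers (7 of 8 measured) averaged between 12.02 and 12.20 in all groups, as the label brain implies. Eye, trachea, muscle and yolk protein genes varied between the control groups, and their values are given where they moved with a member.

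Values below are RMA log2 signals, so a difference of 1 is a doubling. Changes were tested with limma over all arrays with Benjamini-Hochberg adjustment over all probe sets of each contrast, and a gene was called at an adjusted p under 0.05. A probe set's level was set only against its own level in other groups. The contrasts of both mutants share their control arrays, and the 3 contrasts of 1 mutant share its arrays.

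By their brighter or only probe set, Prx3 and Keap1 were the genes that moved in 1 direction against all 3 control groups. Prx3, a mitochondrial peroxiredoxin, was 1.44- to 1.72-fold lower in C17 than in the 3 control groups. Keap1 was 1.24- to 1.40-fold higher in C17 and 1.20- to 1.36-fold higher in PMdr65. Sod2 in C17 also passed against all 3 control groups, but in opposite directions, and the dimmer Sod3 probe set was lower in C17 against all 3. By their brighter or only probe sets, Sod3, Cat, MsrA and cnc passed against at most 2 control groups in either mutant. By gene, C17 thus had 1 member higher and 1 lower against all 3 control groups, where 6.65% of the 8938 genes were called in either direction (4.37% higher and 2.27% lower). PMdr65 had 1 member higher and 0 lower against all 3 by limma, where 9.05% of genes were called (5.87% higher and 3.18% lower), and 1 higher and 1 lower at an unadjusted p under 0.05. The PMdr65 count, 1 of 7, is close to that background, and the C17 count is 2 of 7. At an adjusted p under 0.05 with the limma F test, 7 of 7 members differed over the 5 groups, but so did 69.3% of all genes.

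**Figure D1:**
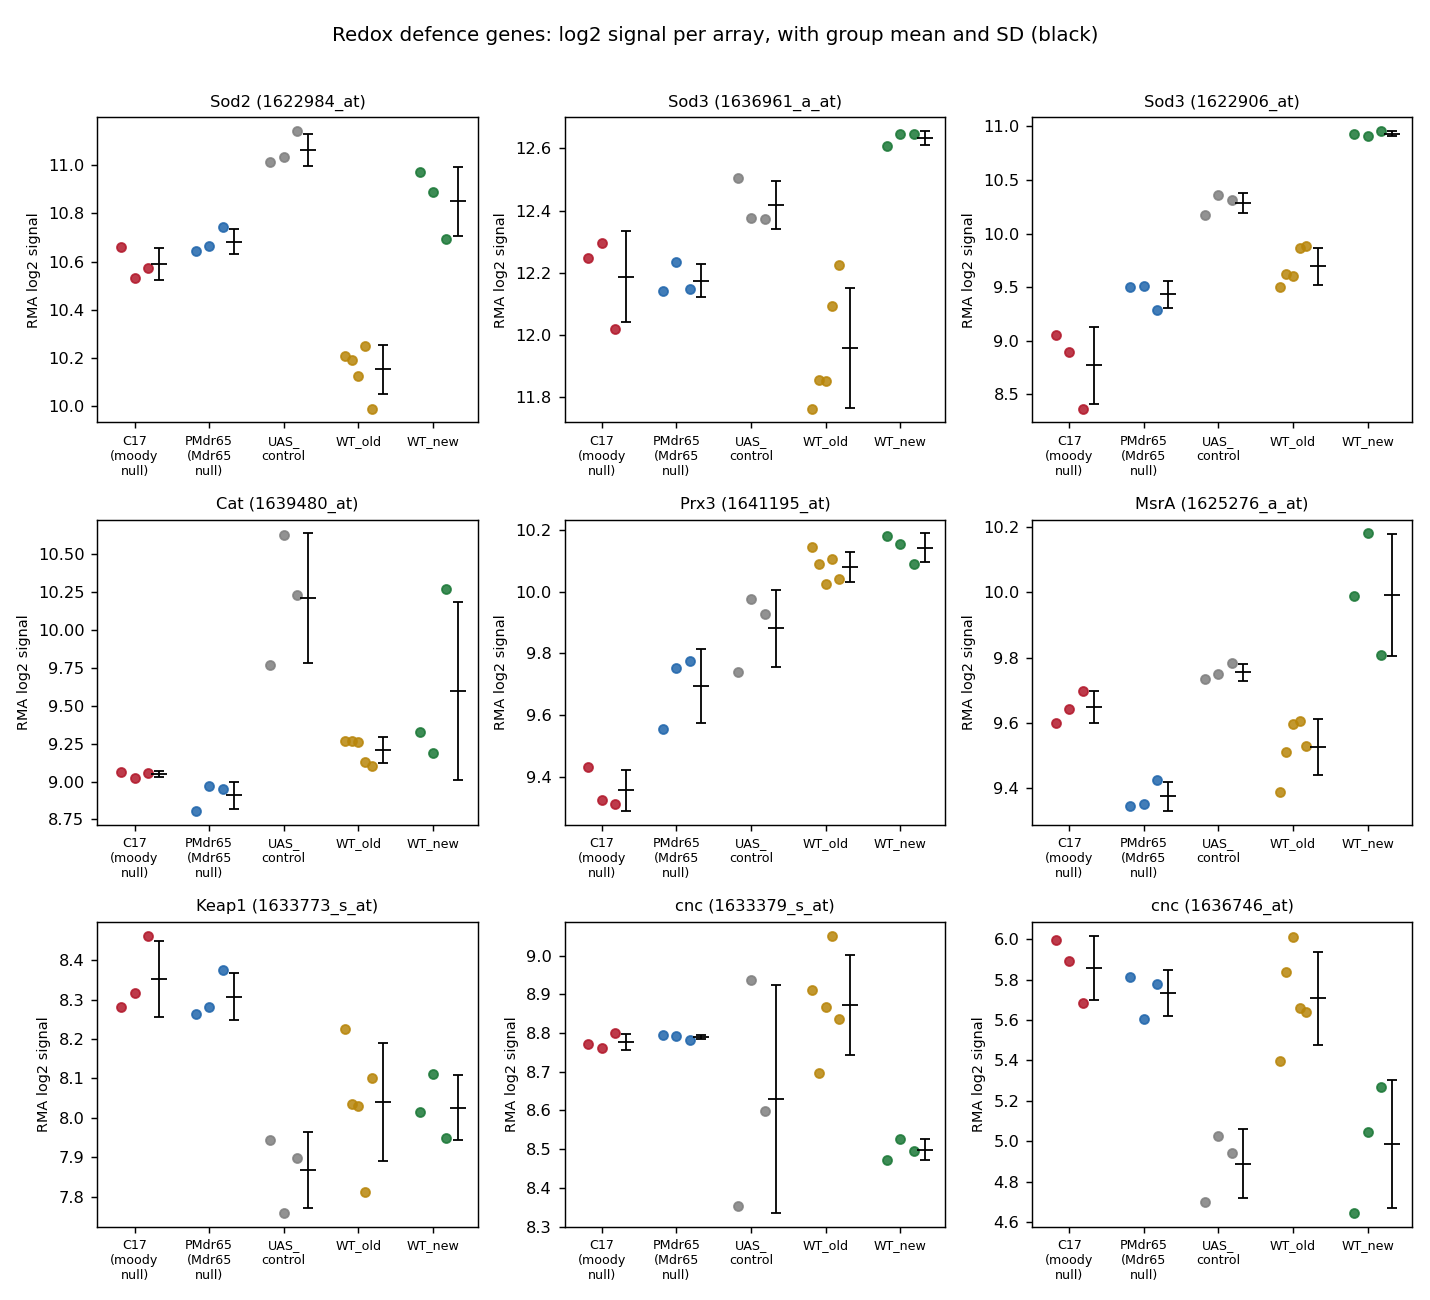
RMA log2 signal of each probe set on every array (points), with the group mean and SD in black, for C17, PMdr65, UAS_control, WT_old and WT_new, on an axis fitted to each panel that does not start at 0. Prx3 lies below and Keap1 above all control arrays in C17, while Sod2 and both Sod3 probe sets differ between the control groups themselves.

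Superoxide is handled in the mitochondria by Sod2, the manganese superoxide dismutase, and outside the cell by Sod3. Sod2 (1622984_at) had signals of 10.66, 10.53 and 10.58 in C17 and 10.64, 10.66 and 10.74 in PMdr65. The control arrays had 11.02, 11.04 and 11.14 in UAS_control, 10.21, 10.19, 10.12, 10.25 and 9.99 in WT_old, and 10.97, 10.89 and 10.69 in WT_new. The arrays of both mutants thus lay between WT_old, which was lowest and overlapped with no other group, and UAS_control, which was highest. Sod2 in C17 was lower than in UAS_control by -0.47 ± 0.08 (log2 difference ± SE, limma adjusted p = 0.000329) and higher than in WT_old by 0.44 ± 0.07 (adjusted p = 0.000498). Against WT_new it was lower by -0.26 ± 0.08 (limma adjusted p = 0.0184). This last call was lost without C17 array 2 or 3 (adjusted p = 0.0695 and 0.0527 by limma), without WT_new array 1 or 2 (0.085 and 0.0536), and when the fit held only the groups compared (0.057).

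Sod2 in PMdr65 was lower than in UAS_control by -0.38 (limma adjusted p = 0.002), higher than in WT_old by 0.53 (adjusted p = 6.65e-05), and at -0.17 relative to WT_new, which did not pass (adjusted p = 0.111). The mutants did not differ from each other beyond the threshold, with a C17 minus PMdr65 difference of -0.09 and a 95% interval of -0.27 to 0.08. The largest of the Sod2 differences lay between control groups. Sod2 was higher in UAS_control than in WT_old by 0.91 (limma adjusted p = 2.14e-07), and lower in WT_old than in WT_new by -0.70 (adjusted p = 7.12e-06), although both wild types were Canton S. In whole-brain RNA, fewer cells of a type and less RNA per cell cannot be told apart.

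Yolk protein genes, made in the female fat body and the ovary, shared the order of group means with Sod2, but not the order of arrays within most groups. The mean log2 signal of Yp1, Yp2 and Yp3 (3 of 5 listed sex and yolk markers measured) ranged from 10.07 to 11.11 in C17, from 10.23 to 11.86 in PMdr65, and from 11.25 to 13.22 in UAS_control. In WT_old it ranged from 6.68 to 8.32 and in WT_new from 11.55 to 12.96, and none of the 3 genes was near 0. The order of the group means was the same for this list and for Sod2, with UAS_control highest, then WT_new, PMdr65, C17 and WT_old. Within groups, WT_new array 3 and WT_old array 5 had the highest yolk signal and the lowest Sod2. C17 array 1 and PMdr65 array 3 had the lowest yolk signal and the highest Sod2. In UAS_control, array 1 was lowest in both. The part of yolk RNA or of its source in the Sod2 differences was not tested.

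For Sod3, the brighter probe set (1636961_a_at) had signals of 12.25, 12.30 and 12.02 in C17 and 12.14, 12.24 and 12.15 in PMdr65. It had 12.51, 12.38 and 12.37 in UAS_control, 11.76, 11.86, 11.85, 12.09 and 12.22 in WT_old, and 12.61, 12.65 and 12.65 in WT_new. Both mutants lay below WT_new and UAS_control on every array and overlapped with WT_old. The difference from WT_new passed in C17, at -0.45 ± 0.11 (limma adjusted p = 0.00369), and in PMdr65, at -0.46 ± 0.11 (adjusted p = 0.00293). Those from UAS_control were -0.23 in C17 and -0.24 in PMdr65 (limma adjusted p = 0.0907 and 0.0808), and those from WT_old were 0.23 and 0.22 (adjusted p = 0.105 and 0.101). Leaving out WT_old array 5, one of the 5 arrays of that group and its highest, brought all 4 of these past the threshold (limma adjusted p between 0.0216 and 0.0475). The mutants had almost the same mean, with a C17 minus PMdr65 difference of 0.01 and a 95% interval of -0.21 to 0.24.

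The dimmer Sod3 probe set (1622906_at) showed a much wider spread of group means. Its signals were 9.05, 8.90 and 8.37 in C17, 9.50, 9.51 and 9.29 in PMdr65, and 10.18, 10.35 and 10.31 in UAS_control. They were 9.50, 9.62, 9.61, 9.86 and 9.88 in WT_old and 10.93, 10.91 and 10.95 in WT_new. C17 lay below every array of every other group, PMdr65 overlapped with WT_old alone, and WT_new was highest. By their brighter or only probe set, 3.82% of genes had all C17 arrays below all 11 control arrays. In C17 the signal was 4.46-fold lower than in WT_new, 2.85-fold lower than in UAS_control and 1.90-fold lower than in WT_old (log2 differences of -2.16, -1.51 and -0.92, limma adjusted p = 5.16e-08, 2.09e-06 and 0.000118). It remained called against all 3 control groups in 26 of 26 alternatives. An exact permutation test of the 3 C17 arrays against the 11 control arrays gave p = 0.00275, the smallest that its 364 splits allow (two-sided, adjusted p = 0.0124 over 18 tests). Here and in the later permutation tests, the splits ignored which control group an array came from. Their p-values thus take no account of group or processing day, and they restate the same arrays that limma used.

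In PMdr65 this Sod3 probe set was lower than in UAS_control by -0.85 and than in WT_new by -1.50 (limma adjusted p = 0.000385 and 2.03e-06), and at -0.26 relative to WT_old, which did not pass (adjusted p = 0.146). C17 was lower than PMdr65 by -0.66 ± 0.14 (limma adjusted p = 0.00932), with an adjusted p of 0.0512 when the fit held only these groups. The 2 Sod3 probe sets therefore gave C17 a different place relative to WT_old, at 0.23 for the brighter one, which did not pass, and -0.92 for the dimmer one. Over the 17 arrays they correlated with r = 0.687, and with r = 0.734 after group means were taken out. Because the gene was represented by its brighter probe set, Sod3 is not among the genes counted as lower in C17 against all 3 control groups. Which transcripts each probe set reads is not given in the sources used here.

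**Figure D2:**
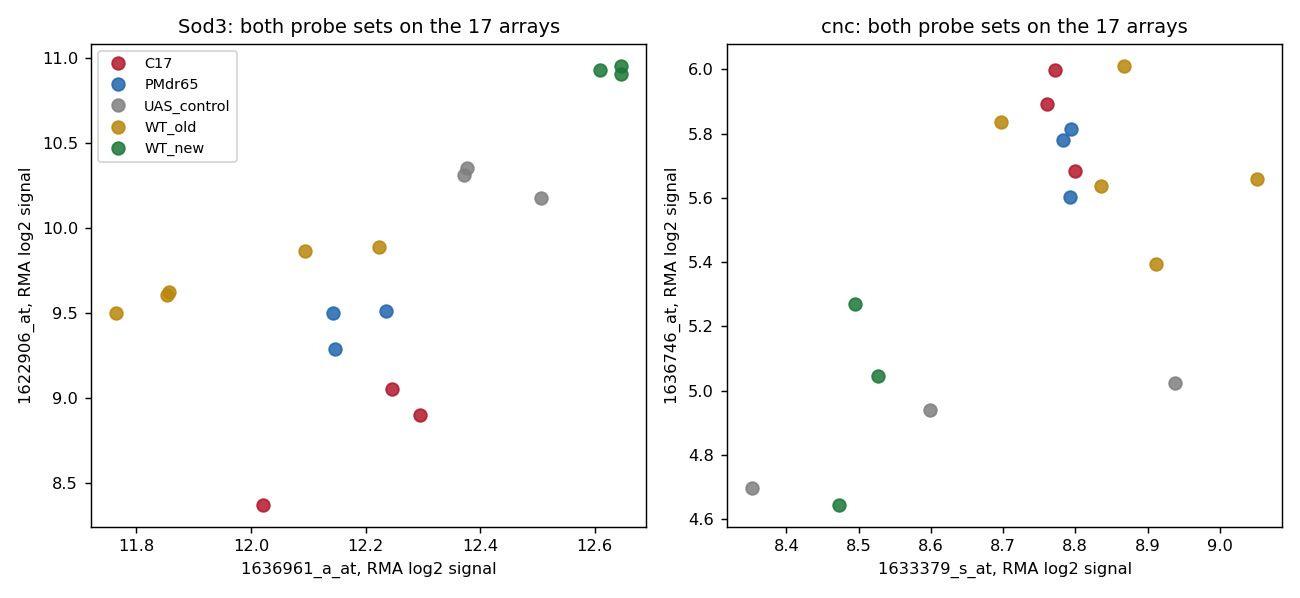
Log2 signal of both probe sets of Sod3 (left) and cnc (right) on the 17 arrays, coloured by group. On the vertical axis of the Sod3 panel the C17 arrays are lowest, while on the horizontal axis they overlap with WT_old, and in the cnc panel the dimmer probe set places UAS_control and WT_new below all other groups.

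Peroxide is removed by Cat, the catalase of peroxisomes, and in the mitochondria by Prx3. Cat (1639480_at) had signals of 9.06, 9.02 and 9.06 in C17 and 8.81, 8.97 and 8.95 in PMdr65. It had 9.77, 10.62 and 10.23 in UAS_control, 9.27, 9.27, 9.26, 9.13 and 9.10 in WT_old, and 9.33, 9.19 and 10.27 in WT_new. All 6 mutant arrays lay below all 11 control arrays, which held for 3.82% of genes in C17 and 4.77% in PMdr65 in this direction. The distance was small for WT_old and large for UAS_control and WT_new array 3. Relative to UAS_control, Cat was 2.23-fold lower in C17 and 2.46-fold lower in PMdr65 (log2 differences of -1.16 and -1.30, limma adjusted p = 0.000883 and 0.000463). Relative to WT_old the differences were -0.16 and -0.30 (adjusted p = 0.646 and 0.297 by limma), and neither passed. That of PMdr65 passed when the fit held only the groups compared (limma adjusted p = 0.011).

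Against WT_new, Cat was at -0.55 in C17 (limma adjusted p = 0.0646) and lower by -0.69 in PMdr65 (adjusted p = 0.0242). The PMdr65 call was lost without WT_new array 3 (adjusted p = 0.113), PMdr65 array 1 (0.0746) or PMdr65 array 3 (0.0504), and when the fit held only the groups compared (0.083). The C17 difference passed without WT_new array 1 or 2 or without UAS_control array 1 or 2, with limma adjusted p between 0.0208 and 0.0467. Further quantile normalization, median centring, array weights or the dimmest 40% left out also brought it past the threshold (limma adjusted p between 0.0396 and 0.0483). In the remaining alternatives it did not pass. When WT_new array 3 and UAS_control array 2 were left out together, an alternative chosen after the data were seen, PMdr65 was lower than all 3 control groups (smallest difference -0.30, highest limma adjusted p = 0.0248). Exact permutation of each mutant's arrays against the 11 control arrays gave p = 0.0852 for C17 and 0.0522 for PMdr65 (two-sided), so neither passed on the mean even though the groups did not overlap. Cat in C17 and PMdr65 differed by 0.14, with a 95% interval of -0.34 to 0.62.

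The high Cat arrays were the arrays with high signals of eye genes. Of 8 listed eye markers, the phototransduction channel genes trp and trpl were measured, and their mean log2 signal ranged from 5.25 to 5.35 in C17 and from 5.21 to 5.44 in PMdr65. It was 7.66, 9.38 and 9.15 in UAS_control, ranged from 5.19 to 5.55 in WT_old, and was 5.93, 6.34 and 9.87 in WT_new. Summed before the logarithm, the channel genes gave 6.75 to 6.95 in C17, 6.88 to 6.96 in PMdr65, 9.25 to 10.92 in UAS_control, 6.65 to 6.96 in WT_old and 7.35 to 11.02 in WT_new. UAS_control arrays 2 and 3 and WT_new array 3 thus had the highest values of both Cat and the eye markers. Trachea markers (2 of 4 listed measured) were high there too, averaging 5.33, 6.55 and 5.70 in UAS_control and 6.08 on WT_new array 3. They were 4.38 and 4.63 on the other WT_new arrays and at most 4.59 in C17, 4.23 in PMdr65 and 4.39 in WT_old. Muscle and yolk markers were also highest in UAS_control and WT_new by group mean. The part of eye, tracheal, muscle or yolk RNA in the Cat differences was not tested. On the 7 arrays of WT_old and WT_new other than WT_new array 3, Cat lay between 9.10 and 9.33. In WT_old the eye markers were at the level of the mutants, and Cat lay above both mutants on all 5 arrays. These differences of Cat from WT_old did not pass in the fit of all arrays (limma adjusted p = 0.646 in C17 and 0.297 in PMdr65). The PMdr65 difference passed with only the groups compared (0.011) and with WT_new array 3 and UAS_control array 2 left out together (0.0223).

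**Figure D3:**
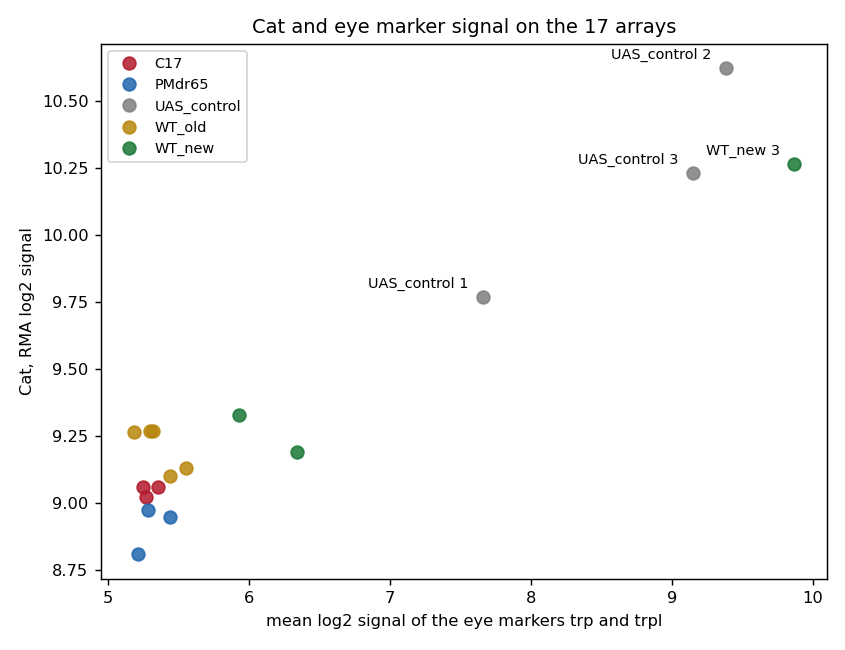
Log2 signal of Cat (vertical axis) against the mean log2 signal of the eye markers trp and trpl (horizontal axis) on the 17 arrays, coloured by group. UAS_control and WT_new array 3 lie at the upper right, and C17, PMdr65 and WT_old share the low end of the horizontal axis, with the mutants below WT_old.

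Prx3 (1641195_at) had signals of 9.43, 9.32 and 9.31 in C17 and 9.55, 9.75 and 9.78 in PMdr65. It had 9.74, 9.98 and 9.93 in UAS_control, 10.14, 10.09, 10.02, 10.11 and 10.04 in WT_old, and 10.18, 10.16 and 10.09 in WT_new. C17 lay below every array of every other group, and PMdr65 lay below both wild types and overlapped with UAS_control. All C17 arrays lay below all 11 control arrays for 3.82% of genes. In C17, Prx3 fell to 9.36 ± 0.07 (SD, n = 3), against 9.88 ± 0.13 in UAS_control (n = 3), 10.08 ± 0.05 in WT_old (n = 5) and 10.14 ± 0.05 in WT_new (n = 3). The differences were -0.53, -0.72 and -0.79, each with an SE of 0.07 (limma adjusted p = 7.37e-05, 1.82e-06 and 1.84e-06), and the call against all 3 control groups held in 26 of 26 alternatives (highest adjusted p between 1.18e-05 and 0.00649). Exact permutation against the 11 control arrays gave p = 0.00275, the smallest possible (two-sided, adjusted p = 0.0124).

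In PMdr65 the Prx3 signal of 9.69 ± 0.12 was lower than in WT_old by -0.39 and than in WT_new by -0.45 (limma adjusted p = 0.000533 and 0.000245). Its difference of -0.19 from UAS_control did not pass (adjusted p = 0.0583), and passed in 6 of 26 alternatives (adjusted p against all 3 control groups between 0.0149 and 0.259). Exact permutation gave p = 0.00824 for PMdr65 against the 11 control arrays (two-sided, adjusted p = 0.0297). C17 was lower than PMdr65 by -0.34 ± 0.07 (limma adjusted p = 0.0103), where 3.71% of genes were higher and 3.23% lower. This call was lost without C17 array 3, PMdr65 array 2 or PMdr65 array 3 (adjusted p = 0.0545, 0.0568 and 0.0577 by limma). The wild types did not differ in Prx3 beyond the threshold, with a WT_old minus WT_new difference of -0.06 (limma adjusted p = 0.478). UAS_control was lower than WT_old by -0.20 and than WT_new by -0.26 (adjusted p = 0.0195 and 0.0287 by limma). Both of these were lost without UAS_control array 1 (0.127 and 0.0924), with array weights (0.111 and 0.104) and with only the groups compared (0.0509 and 0.208), and that against WT_new also without WT_new array 1 or 2 (0.0956 and 0.0706).

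MsrA (1625276_a_at) is the methionine sulfoxide reductase that repairs the S form of the oxidised amino acid. Its mean was higher in C17 than in PMdr65, but the difference did not pass (limma adjusted p = 0.062). Its signals were 9.60, 9.64 and 9.70 in C17, 9.35, 9.35 and 9.43 in PMdr65, and 9.73, 9.75 and 9.78 in UAS_control. They were 9.39, 9.51, 9.60, 9.60 and 9.53 in WT_old and 9.99, 10.18 and 9.81 in WT_new. Each C17 array was above each PMdr65 array, WT_new was above every other group, and WT_old overlapped with both mutants. In PMdr65, MsrA was lower than in UAS_control by -0.38 ± 0.08 and than in WT_new by -0.62 ± 0.08 (limma adjusted p = 0.00222 and 3.59e-05), and at -0.15 relative to WT_old (adjusted p = 0.141). In C17 it was lower than in WT_new by -0.34 ± 0.08 (limma adjusted p = 0.00385), and its differences of -0.11 from UAS_control and 0.12 from WT_old did not pass (adjusted p = 0.307 and 0.279).

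The C17 minus PMdr65 difference of MsrA was 0.27 ± 0.08, with a 95% interval of 0.10 to 0.45 and an adjusted p of 0.062 by limma. It passed without WT_new array 2 or 3 or WT_old array 1 (adjusted p = 0.0251, 0.0244 and 0.0467 by limma), and with array weights (0.00182). WT_old was lower than WT_new by -0.47 (limma adjusted p = 0.000167), more than the distance between the mutants.

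The regulators Keap1 and cnc differed in how they moved. Keap1 (1633773_s_at) had signals of 8.28, 8.32 and 8.46 in C17 and 8.26, 8.28 and 8.38 in PMdr65. It had 7.94, 7.76 and 7.90 in UAS_control, 8.23, 8.03, 8.03, 7.81 and 8.10 in WT_old, and 8.02, 8.11 and 7.95 in WT_new. Every mutant array was above the highest control array, which held for 7.13% of genes in C17 and 7.51% in PMdr65, and the margin to WT_old array 1 was small. Keap1 rose to 8.35 ± 0.10 in C17 and 8.31 ± 0.06 in PMdr65 (SD, n = 3 each), against 7.87 ± 0.10 in UAS_control (n = 3), 8.04 ± 0.15 in WT_old (n = 5) and 8.03 ± 0.08 in WT_new (n = 3). In C17 the differences were 0.49, 0.31 and 0.33 against UAS_control, WT_old and WT_new (SE 0.08 to 0.09, limma adjusted p = 0.000735, 0.0142 and 0.0105). In PMdr65 they were 0.44, 0.27 and 0.28 (adjusted p = 0.00181, 0.0244 and 0.0234 by limma).

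Both mutants had Keap1 called in the same direction against all 3 control groups, as was the case for 3.54% of the 8938 genes. Exact permutation against the 11 control arrays gave p = 0.00275 in each mutant, the smallest possible (two-sided, adjusted p = 0.0124). The C17 call against all 3 control groups was lost without C17 array 3 (highest limma adjusted p = 0.089). The PMdr65 call was lost without PMdr65 array 2 or 3 (0.059 and 0.101) without WT_new array 1 or 3 (0.0572 and 0.08), and without WT_new array 3 and UAS_control array 2 together (0.0729). Some glial markers moved with the mutants as well. Of 7 measured of 8 listed, moody, Gli, wrapper and drpr were called higher in PMdr65 against all 3 control groups, and in C17 Gli was called higher and moody, its deleted gene, lower. Summed before the logarithm, the 7 gave 14.16 to 14.21 in C17, 14.46 to 14.50 in PMdr65, 14.19 to 14.3 in UAS_control, 14.03 to 14.29 in WT_old and 14.13 to 14.28 in WT_new. These sums include moody itself, at 2.17 in C17 and 11.39 in PMdr65. The glial markers repo, Gs2 and alrm were not called in either mutant. The part of glial RNA in the Keap1 rise was not tested. The mutants' Keap1 levels differed by 0.05, with a 95% interval of -0.15 to 0.24. No difference of Keap1 between control groups passed, with limma adjusted p = 0.278 for UAS_control minus WT_new, 0.0863 for UAS_control minus WT_old and 0.897 for WT_old minus WT_new. The UAS_control minus WT_old difference passed without WT_old array 4, its lowest array (adjusted p = 0.0148).

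For cnc, the brighter probe set (1633379_s_at) had signals of 8.77, 8.76 and 8.80 in C17 and 8.79, 8.79 and 8.78 in PMdr65. It had 8.35, 8.94 and 8.60 in UAS_control, 8.91, 8.70, 8.87, 9.05 and 8.84 in WT_old, and 8.47, 8.53 and 8.50 in WT_new. The mutants were tight, UAS_control spread over nearly the whole range, and only WT_new lay apart from the mutants. Neither mutant differed from UAS_control (0.15 in C17 and 0.16 in PMdr65, limma adjusted p = 0.307 and 0.28) or from WT_old (-0.10 and -0.08, adjusted p = 0.566 and 0.584) beyond the threshold. Against WT_new the differences were 0.28 in C17 and 0.29 in PMdr65, on either side of it (limma adjusted p = 0.0595 and 0.0496). The PMdr65 call was lost without any 1 array of C17, WT_new or PMdr65, WT_old array 1, 3 or 5, or UAS_control array 3 (adjusted p between 0.056 and 0.111). Without UAS_control array 2, the highest of its group, C17 and PMdr65 were higher than UAS_control by 0.30 and 0.31 (limma adjusted p = 0.0184 and 0.0168), and C17 passed against WT_new (0.0137), as it did without UAS_control array 1 (0.0208). WT_old was higher than WT_new by 0.37 (limma adjusted p = 0.00742).

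The dimmer cnc probe set (1636746_at) had signals of 6.0, 5.89 and 5.68 in C17, 5.81, 5.60 and 5.78 in PMdr65, and 4.70, 5.03 and 4.94 in UAS_control. It had 5.40, 5.84, 6.01, 5.66 and 5.64 in WT_old and 4.65, 5.05 and 5.27 in WT_new. The groups formed a high set of C17, PMdr65 and WT_old and a low set of UAS_control and WT_new, with no overlap between the sets. These sets were drawn from the same values, and the share of genes that split in this way was not counted. C17 was higher than UAS_control by 0.97 ± 0.16 and than WT_new by 0.87 ± 0.16 (limma adjusted p = 0.000281 and 0.000653), and PMdr65 by 0.84 and 0.75 (adjusted p = 0.000993 and 0.00192). The differences from WT_old, 0.15 in C17 and 0.03 in PMdr65, did not pass (limma adjusted p = 0.528 and 0.918). WT_old was higher than WT_new by 0.72 (adjusted p = 0.00108 by limma), which is close in size to the mutants' differences from WT_new. The cnc probe sets correlated with r = 0.63 over the 17 arrays and with r = 0.15 after group means were taken out.

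**Figure D4:**
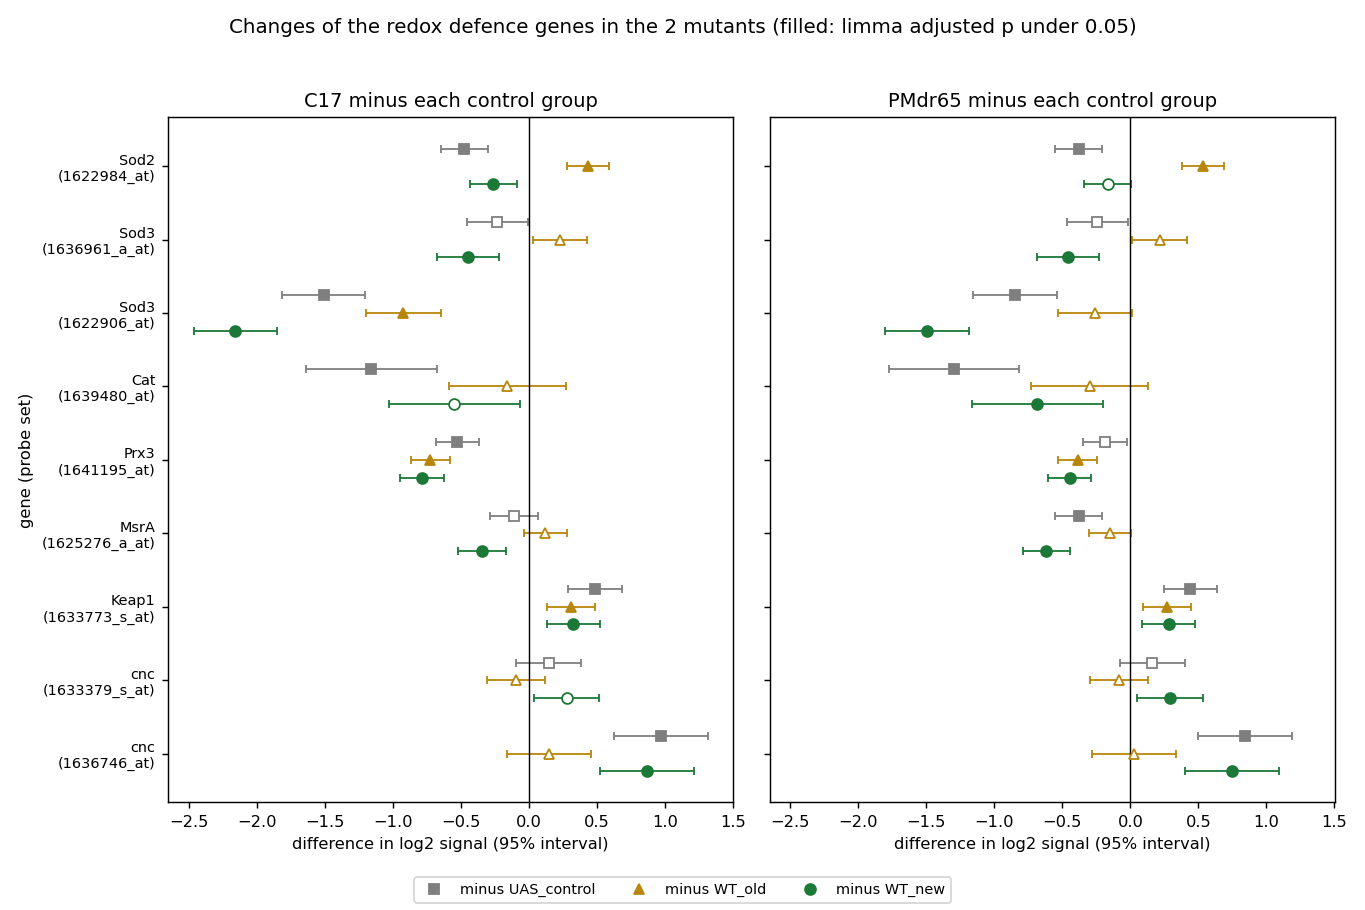
Difference in log2 signal of each probe set between C17 (left) or PMdr65 (right) and each of the 3 control groups, with 95% intervals, where filled symbols mark a limma adjusted p under 0.05. The 3 symbols lie on 1 side of 0 and are all filled for Keap1 in both mutants and for Prx3 and the dimmer Sod3 probe set in C17, while those of Sod2 lie on both sides.

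The count of members called depended on the control group, as it did for all genes. In C17, 1 member was higher and 3 lower than in UAS_control, where 23.2% of all genes were higher and 20.4% lower. Against WT_old 2 were higher (11.6% of genes) and 1 lower (8.03%), and against WT_new 1 was higher (24.1%) and 4 lower (17.9%). In PMdr65, 1 member was higher (21.1% of genes) and 3 lower (20%) than in UAS_control. Against WT_old 2 were higher (15.3%) and 1 lower (13.2%), and against WT_new 2 were higher (23.6%) and 4 lower (19.6%). The median difference of the 7 members in C17 was -0.23 against UAS_control, 0.12 against WT_old and -0.34 against WT_new, and the medians over all genes were 0.02, 0.01 and 0.02. In PMdr65 the members' medians were -0.24, -0.08 and -0.45 on the log2 scale, and the medians over all genes lay between 0.00 and 0.01.

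The control groups differed among themselves in several members. UAS_control had 4 members higher and 1 lower than WT_old, where 27.3% of genes were called in each direction. It had 0 members higher (8.41% of genes) and 1 lower (6.4%) than WT_new. WT_old had 1 member higher (24.1%) and 3 lower (21%) than WT_new, namely cnc higher and Sod2, Sod3 and MsrA lower. Between the mutants 0 members were higher and 1 was lower in C17 than in PMdr65, namely Prx3 (3.71% of genes higher and 3.23% lower). At an unadjusted p under 0.05 limma gave 2 higher and 2 lower for UAS_control minus WT_new, and 1 higher and 1 lower for C17 minus PMdr65.

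Other genes of the redox system were taken from lists of 68 genes, of which 51 were measured, the 7 members among them. Outside the members, C17 had 4 genes higher and 0 lower against all 3 control groups (5 and 2 at an unadjusted p under 0.05 by limma), and PMdr65 had 4 higher and 3 lower, out of 44. All of the higher genes in both mutants belonged to the list of metal handling (10 of 13 measured), where 40% of the measured genes were called in each mutant. Over all genes 6.65% were called in C17 and 9.05% in PMdr65. The lists were chosen with earlier results of these data known, so these shares are a description and not a test of the list. The C17 calls of Fer1HCH and Fer2LCH held in 18 and 16 of 26 alternatives. In the list of superoxide and peroxide removal (9 of 15 measured) only Prx3 was called, lower in C17, and among thioredoxins, glutaredoxins and methionine sulfoxide reductases (11 of 12) only Grx1, lower in PMdr65. Of cnc and Keap1 signalling (6 of 6 measured), Keap1 was higher in both mutants and maf-S lower in PMdr65. Of stress signalling and mitochondrial quality (8 of 9), dj-1beta was lower in PMdr65. Glutathione and NADPH supply (4 of 9 measured) and superoxide and peroxide production (3 of 4) had 0 genes called by limma against all 3 control groups in either mutant. At an unadjusted p under 0.05 the supply list had 1 lower gene in each mutant and the production list 1 lower gene in C17.

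MTF-1, the metal-responsive transcription factor, rose to 8.74 ± 0.03 in C17 and 9.05 ± 0.05 in PMdr65 (SD, n = 3 each), against 8.31 in UAS_control, 8.32 in WT_old and 8.28 in WT_new. Its differences from the control groups were 0.43 to 0.47 in C17 and 0.73 to 0.77 in PMdr65 (highest limma adjusted p = 0.00295 and 5.74e-05). The C17 minus PMdr65 difference of MTF-1, -0.31, did not pass (limma adjusted p = 0.0804). Ctr1A, a copper importer, rose to 10.21 ± 0.05 in C17 and 10.21 ± 0.08 in PMdr65, against 9.54, 9.95 and 9.63 in UAS_control, WT_old and WT_new (highest limma adjusted p = 0.00569 and 0.0038).

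The iron genes called were not the same in the 2 mutants. The ferritin subunits Fer1HCH and Fer2LCH, which store iron, rose in C17 by 0.17 to 0.22 and by 0.18 to 0.25 on the log2 scale (highest limma adjusted p = 0.0235 and 0.027). Both calls were lost without C17 array 1 or 2 or WT_old array 2, that of Fer1HCH also without WT_new array 1, and that of Fer2LCH also without C17 array 3, WT_new array 3 or WT_old array 3 (highest adjusted p between 0.054 and 0.102 for Fer1HCH and between 0.052 and 0.121 for Fer2LCH). Scaling and model ended them too, that of Fer1HCH with centring on array medians (0.12), that of Fer2LCH with further quantile normalization (0.167), and both with only the groups compared in the fit (0.0644 and 0.0679) or with WT_new array 3 and UAS_control array 2 left out together (0.0531 and 0.0648). Their C17 minus PMdr65 differences, 0.17 and 0.11, did not pass (limma adjusted p = 0.0731 and 0.369). The transferrin Tsf1, an iron carrier, rose in PMdr65 to 12.12 ± 0.14, against 11.34 in UAS_control, 11.23 in WT_old and 10.94 in WT_new (highest limma adjusted p = 7.26e-05). It was lower in C17 than in PMdr65 by -0.61 (adjusted p = 0.00187 by limma), and 1 of its 3 probe sets was not called in PMdr65. Tsf2, a transferrin of septate junctions, rose in PMdr65 to 9.0 ± 0.11, against 8.08, 8.45 and 8.08 (highest limma adjusted p = 0.0196), and its C17 minus PMdr65 difference of -0.47 did not pass (adjusted p = 0.166). The Tsf2 call was lost without PMdr65 array 1 or 3 (highest adjusted p = 0.0595 and 0.0798). Beside these rises in PMdr65, the fat body marker Lsp2, a larval serum protein, was called higher in PMdr65 against all 3 control groups, at 7.85 against 5.58 in UAS_control, 3.62 in WT_old and 4.66 in WT_new. The other measured fat body marker, apolpp, was not (2 of 8 listed measured). Summed before the logarithm, the fat body markers gave 10.93 to 11.4 in PMdr65, 11.24 to 12.08 in UAS_control, 10.55 to 10.86 in WT_old and 11.16 to 11.85 in WT_new. The part of fat body or glial RNA in the PMdr65 changes of these genes was not tested.

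The lower genes outside the members were called in PMdr65. The small Maf protein maf-S, the DNA-binding partner of cnc, fell to 9.99 ± 0.12 in PMdr65, against 10.53 in UAS_control, 10.41 in WT_old and 10.41 in WT_new (highest limma adjusted p = 0.00352). The C17 minus PMdr65 difference of maf-S, 0.24, did not pass (adjusted p = 0.226 by limma). The glutaredoxin Grx1 fell to 9.83 ± 0.16 in PMdr65, against 10.16, 10.16 and 10.57 (highest limma adjusted p = 0.0102, or 0.0759 with only the groups compared), and dj-1beta, a fly homologue of the Parkinson's disease gene DJ-1, fell to 9.68 ± 0.14, against 10.56, 10.07 and 10.58 (adjusted p = 0.00051). Both were higher in C17 than in PMdr65, Grx1 by 0.39 and dj-1beta by 0.55 (limma adjusted p = 0.0151 and 0.000203). GstD1, a glutathione transferase and a widely used target gene of cnc, was named after its values were seen. It was not called against all 3 control groups in either mutant, with 10.83 ± 0.11 in C17 and 10.19 ± 0.29 in PMdr65, against 10.17, 10.72 and 10.86. Its differences from UAS_control, WT_old and WT_new were 0.66, 0.10 and -0.04 in C17 and 0.02, -0.54 and -0.68 in PMdr65. The activity of cnc was not tested.

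**Figure D5:**
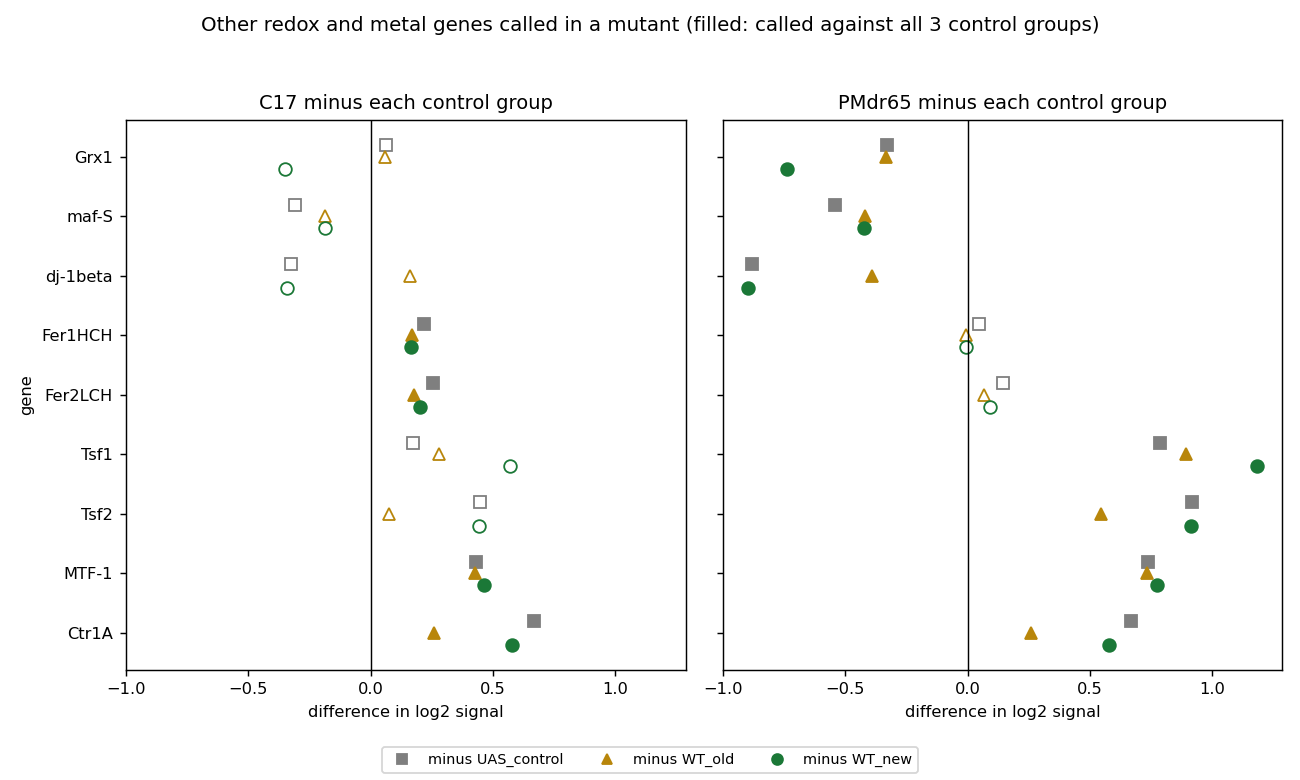
Difference in log2 signal between C17 (left) or PMdr65 (right) and each of the 3 control groups for the 9 genes outside the members that were called in at least 1 mutant, where filled symbols mark genes called against all 3 control groups in that mutant. MTF-1 and Ctr1A are filled on the right of 0 in both panels, and maf-S, Grx1 and dj-1beta are filled on the left of 0 for PMdr65.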

How the data were processed

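Per the file headers, the deposited values are log2 probe set signals made by the authors with RMA. The tools affy, RMA and limma are named in the submitters' processing notes, without version numbers. The series matrix held 13290 probe sets, which matched an unfiltered deposited table of 18769 to within 0.005. The other 5479 carried no gene name here. The platform annotation gave 1 symbol to 10243 probe sets, several to 310 and none to 2737. Genes were represented by the probe set with the highest mean.

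Groups were compared in 1 limma model of all 17 arrays (limma 3.58.1, R 4.3.3, residual degrees of freedom 12, prior 2.93), with Benjamini-Hochberg adjustment within each of 10 contrasts. The procedure was tested on simulated data. The number of arrays limits the precision. Named genes were all members, list genes called against all 3 control groups in a mutant (at most 5 per list), and the 2 genes most similar to each member; GstD1 was named after its values were seen. Members and lists were chosen with earlier results of these data known. Alternatives were the unfiltered table, further quantile normalization, median centring, a trended robust prior, array weights, fits of only the groups compared, the replicate number as a block, the dimmest 40% left out, each array left out, and 2 arrays left out together. Lists outside the members covered removal of superoxide and peroxide, thioredoxins and glutaredoxins, glutathione and NADPH, cnc and Keap1 partners, stress and mitochondrial quality, metals, and production. Sod1 was not analysed here.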

Additional observations from a re-analysis of the deposited data

How the results depend on the processing

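Of the 90 changes of the 9 probe sets over 10 contrasts, 51 were called, and none reversed while called in any alternative. Each array left out in turn kept 1470 of 1530 on their side of the threshold (34 lost and 26 gained). The other alternatives kept between 79 of 90 (array weights) and 89 of 90 (unfiltered table), with 80 of 90 for the replicate block and for 2 arrays left out together, and 75 of 80 with the dimmest 40% left out. The count of members called against all 3 control groups in PMdr65 (1) was 2 with quantile normalization, median centring, a trended robust prior, array weights or the dimmest 40% left out, and 0 with the replicate block. That of C17 (2) was 1 with the replicate block. C17 minus PMdr65 (1) gave 2 with a trended prior, array weights, only the groups compared, the dimmest left out, or WT_new array 3 and UAS_control array 2 left out together, which was chosen after seeing the data. UAS_control minus WT_new (1) gave 2 with quantile normalization or centring, 0 with only the groups compared or the block, and 3 with both arrays left out. The wider count in C17 (6) was 2 with the block. The causes were not tested. Leaving out 1 array gave 1 to 2 members in C17, 0 to 2 in PMdr65, 0 to 2 in C17 minus PMdr65, 4 to 5 in WT_old minus WT_new (4), 0 to 3 in UAS_control minus WT_new, 4 to 6 in UAS_control minus WT_old (5), and 6 to 7 over the 5 groups (7). In the wider list it gave 4 to 8 in C17 (6) and 7 to 9 in PMdr65 (8). Replicate numbers did not pair the arrays. The deviations of 30 same-numbered pairs correlated with r between -0.474 and 0.405, and 5 of 15 arrays correlated best with their own number. Numbers 4 and 5 occurred only in WT_old, so with the block the differences from WT_old rested on its arrays 1 to 3. With the block, the Keap1 call was lost against WT_old in both mutants (limma adjusted p = 0.0694 in C17 and 0.101 in PMdr65). Those of Ctr1A (0.0556), Fer1HCH (0.0746) and Fer2LCH (0.0937) in C17 and of Tsf2 (0.0743) in PMdr65 were lost too. Of all probe sets called in UAS_control minus WT_new, 49.5% were higher, against 39.1% after quantile normalization and 40.3% after centring. The F test has no version with only the groups compared.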

Other observations

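For each member, the 2 other genes with the most similar pattern over the 17 arrays were sought by Pearson's r, given as a description with no test, since the arrays share their groups. Sod2 was most similar to veli (r = 0.982) and Vha14-1 (r = 0.966), a subunit of the vacuolar proton pump. The brighter Sod3 probe set was most similar to hoe1 (r = 0.905) and CG30423 (r = 0.895). Cat was most similar to inaD (r = 0.969), a scaffold protein of phototransduction, and to Cpr97Eb (r = 0.968), a cuticle protein gene. Prx3 was most similar to CG5835 (r = 0.945) and to RpL27 (r = 0.938), a ribosomal protein gene. MsrA was most similar to Idh (r = 0.935), an isocitrate dehydrogenase gene, and CG9109 (r = 0.927). Keap1 was most similar to Pabp2 (r = 0.924) and Naprt (r = 0.913), and the brighter cnc probe set to Tom40 (r = 0.915), a part of the mitochondrial import pore, and CG31820 (r = 0.863).

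Muscle markers (5 of 9 listed measured) varied between the groups too, with mean log2 signals of 5.14 in C17, 5.32 in PMdr65, 7.45 in UAS_control, 4.82 in WT_old and 6.23 in WT_new, and a highest array of 8.98 in UAS_control. None of the members lay among the 20 measured genes nearest to moody or to Mdr65.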
